A study of Mus musculus with 32 samples.

Results

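The 9 genes described here are the D-type cyclins Ccnd1, Ccnd2 and Ccnd3, the CDK inhibitors Cdkn1a, Cdkn1b, Cdkn1c, Cdkn2a and Cdkn2b, and the transcription factor gene Myc. They were taken by symbol from a table of 20234 genes measured in MEFs, fibroblasts cultured from mouse embryos. The cells were given thapsigargin, which stops calcium being pumped into the endoplasmic reticulum (ER) and so causes ER stress, for 0 h (control), 1 h or 16 h. A further group had thapsigargin for 16 h with a PERK inhibitor during the last 4 h. Each group had 4 samples, and each was sequenced both as cytosolic RNA and as polysome RNA, the mRNA sedimenting with more than 4 ribosomes, which makes 32 libraries. The sources used here give neither the thapsigargin dose, nor the inhibitor's name, dose or solvent control, nor the passage and genotype of the MEFs.

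D cyclins bind CDK4 and CDK6 in G1 phase, and the kinase they activate phosphorylates the retinoblastoma protein, which releases E2F factors and lets cells enter S phase. The Ink4 proteins (p15 from Cdkn2b, p16 from Cdkn2a) bind CDK4 and CDK6, while the Cip/Kip proteins (p21 from Cdkn1a, p27 from Cdkn1b, p57 from Cdkn1c) bind cyclin-CDK complexes. Cdkn2a also encodes ARF from another first exon and reading frame, and Myc drives ribosome production and growth. PERK, a kinase of the ER membrane, phosphorylates the initiation factor eIF2 when the ER is stressed. Cyclin D1 is a short-lived protein known to be lost when PERK is active, because its translation falls.

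Levels are given as CPM, a gene's counts relative to the library's total scaled by TMM, a factor that makes most genes comparable between libraries. For levels these factors came from all 32 libraries, and for changes within 1 kind of RNA from its own 16. A fold can therefore differ from the ratio of printed CPM. Cytosolic Cdkn2b had means of 28.76 CPM in control and 29.98 CPM at 16 h, but a fitted log2 change of -0.06. Translational efficiency (TE) is the ratio of polysome to cytosolic CPM of a gene. Since both kinds of library are scaled to their own totals, a loss of polysomes shared by all mRNAs does not show in TE, and a gene's TE is relative to that of most other genes. In bulk RNA, fewer cells that express a gene and less RNA per cell cannot be told apart. The labels do not say whether replicates were separate cultures on separate days, so the p-values rest on a spread that may be only technical. A gene was called changed where edgeR's quasi-likelihood test gave an adjusted p under 0.05 over all genes tested.

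Library totals ran from 19.32 to 41.78 M counts. Of 12 fibroblast markers, 9 stood above 1 CPM in each group and Dcn, Lum and Fap did not. The summed level of the 12 in cytosolic RNA moved with treatment, at 7703 to 10510 CPM in controls, 17190 to 20710 CPM at 1 h and 4043 to 4701 CPM at 16 h, and its part in the results was not tested. All 7 epithelial markers were under 1 CPM in every group, and immune and endothelial marker sums did not pass 4.777 and 2.308 CPM. The stress response was present: in cytosolic RNA at 16 h the chaperone gene Hspa5 was 16.7-fold above control and the transcription factor gene Ddit3 32.5-fold. Both were lower with the inhibitor than at 16 h without it, Hspa5 by 2.46-fold and Ddit3 by 10.4-fold. The polysome level of Atf4, whose mRNA is translated better when eIF2 is phosphorylated, was 19.9-fold lower with the inhibitor than at 16 h without it. Libraries of the same group differed in how their counts depended on transcript GC content: the correlation across genes between a library's deviation from its group and GC ran from -0.739 in the first control cytosolic library to 0.708 in the second.

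Per kilobase of transcript, Myc led the 9 genes in control cytosolic RNA at 120.1 ± 14.0 CPM per kb (SD, n = 4). Cdkn2a followed at 106.2 ± 33.0, and the libraries of these genes overlapped. Ccnd2 stood at 41.2 ± 3.28 CPM per kb and Ccnd3 at 32.4 ± 5.28, and the lowest Ccnd2 library nearly met the highest Ccnd3 library. Below them came Cdkn2b at 20.7 ± 0.857, Ccnd1 at 12.1 ± 0.528, Cdkn1b at 9.09 ± 0.139 and Cdkn1a at 0.962 ± 0.189 CPM per kb, without overlap between neighbours. Cdkn1c was at the limit of detection in each group.

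**Figure D1:**
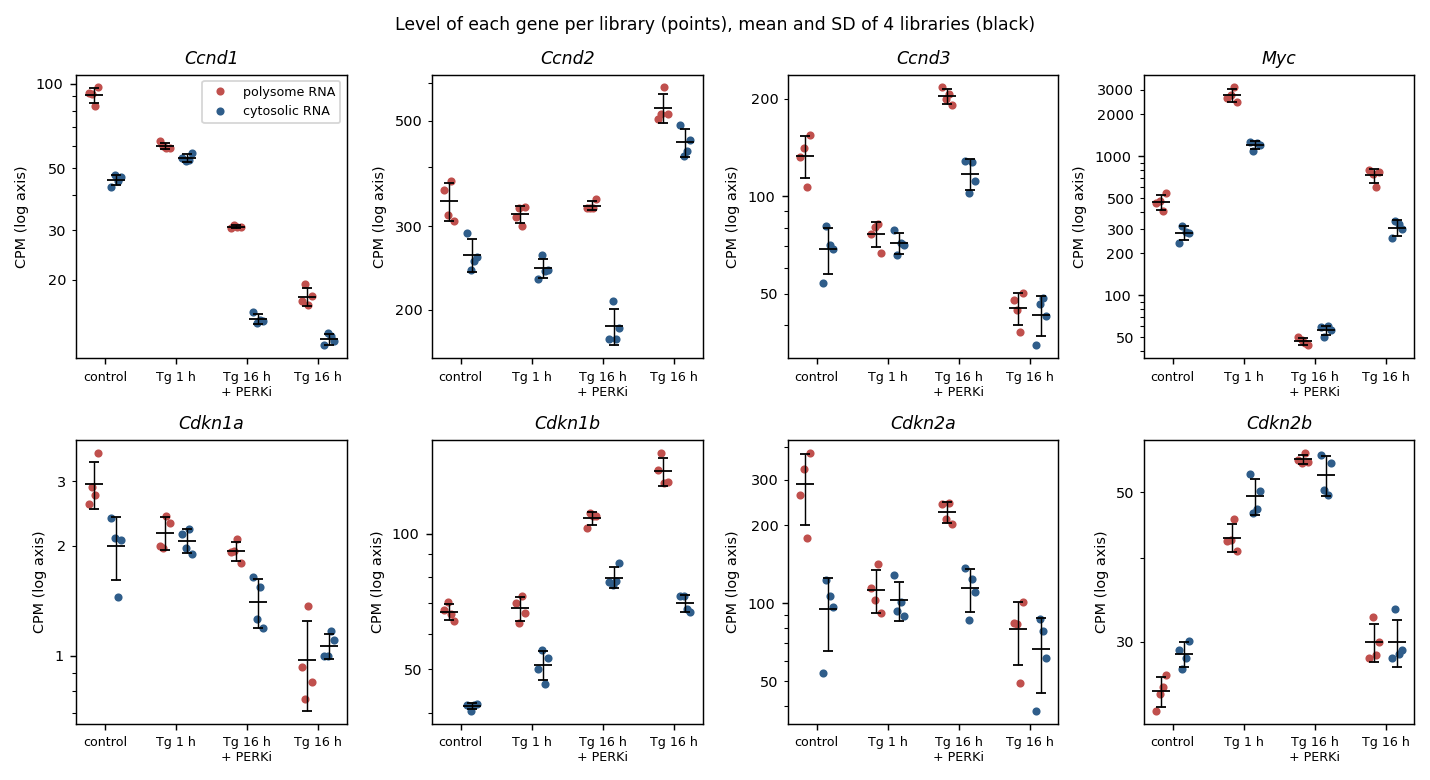
Level in CPM (log axis) of 8 of the genes in every library, polysome RNA in red and cytosolic RNA in blue, with the mean and SD of 4 libraries in black. Ccnd1 lay lowest at 16 h (11.65 to 12.89 CPM in cytosolic RNA), Myc highest at 1 h (2447 to 3128 CPM in polysome RNA) and lowest with the inhibitor (43.6 to 50.28 CPM in polysome RNA).

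Of the 9 genes, 8 passed the filter on low counts and were tested. In cytosolic RNA at 1 h, 4 of the 8 were higher and 0 lower than control, when 28.1% of all 12366 genes tested were called higher and 28.1% lower. In polysome RNA 2 were higher and 4 lower (41.1% and 38.5% of 12065 genes), and in TE 1 was higher and 5 lower (33.4% and 34.4% of 12561 genes). After 16 h, 2 were higher and 4 lower than control in cytosolic RNA (37.9% and 39.4% of all genes), 4 higher and 4 lower in polysome RNA (42.3% and 42.9%), and 2 higher and 4 lower in TE (31.1% and 33%). With the inhibitor, 6 were higher and 2 lower than at 16 h without it in cytosolic RNA (42.2% and 32.5%), 5 higher and 3 lower in polysome RNA (42.1% and 40.7%), and 4 higher and 2 lower in TE (26.4% and 33.7%). Against control, the cells with inhibitor had 3 of the 8 higher and 4 lower in cytosolic RNA (38.1% and 35.2%), 3 and 3 in polysome RNA (36.8% and 40.3%), and 2 and 2 in TE (16.3% and 27.1%). At 16 h against 1 h, 2 were higher and 6 lower in cytosolic RNA (37.7% and 37.7%), again 2 and 6 in polysome RNA (38.4% and 40%), and 2 and 0 in TE (14.5% and 13.6%). The members' shares lay on both sides of those of all genes, and as counts of 8 chosen genes they are a description only.

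Ccnd1, which encodes cyclin D1, moved in opposite directions in the cytosolic and polysome pools at 1 h and was low in both at 16 h. In cytosolic RNA it had 42.7, 47.1, 45.1 and 46.6 CPM in control samples, 54.2, 53.1, 53.3 and 56.7 CPM at 1 h, and 11.7, 12.9, 12.6 and 12.1 CPM at 16 h. Its polysome RNA had 92.5, 91.9, 83.5 and 96.9 CPM in control samples, 62.4, 59.7, 58.9 and 58.9 CPM at 1 h, and 16.8, 19.2, 16.2 and 17.4 CPM at 16 h. At 1 h every cytosolic library was thus above all controls, while every polysome library was below them. The cytosolic level rose 1.19-fold (log2 0.25 ± 0.05 SE, edgeR adjusted p = 0.000685) and the polysome level was 1.47-fold lower (log2 -0.55 ± 0.06, edgeR adjusted p = 1.69e-08). TE fell by 0.86 ± 0.07 on the log2 scale, a 1.82-fold loss (edgeR adjusted p = 4.51e-09). When the libraries were adjusted for a trend with coding length, the TE difference at 1 h was -0.41 and still called. The polysome to cytosolic ratio of single samples, on the log2 scale, was 0.20, 0.17, 0.14 and 0.05 at 1 h, against 1.12, 0.96, 0.89 and 1.06 in controls. The mean ratio was 1.10 at 1 h and 2.01 in controls.

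At 16 h Ccnd1 was 4.01-fold below control in cytosolic RNA (log2 -2.005 ± 0.056, edgeR adjusted p = 2.87e-15) and 5.5-fold below in polysome RNA (log2 -2.46 ± 0.06, edgeR adjusted p = 9.4e-19). TE stood 0.51 ± 0.08 log2 units below control (edgeR adjusted p = 9.71e-06), above its 1 h value by 0.36 ± 0.08 (edgeR adjusted p = 0.00182). The TE difference at 16 h was -0.01 ± 0.07 and no longer passed the test (edgeR adjusted p = 0.885) with the same coding-length adjustment, Ccnd1 having a coding sequence of 885 nt.

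With the PERK inhibitor Ccnd1 had 15.4, 14.0, 14.4 and 14.2 CPM in cytosolic RNA and 30.5, 31.4, 30.8 and 30.9 CPM in polysome RNA, all above the 16 h libraries without it. The polysome level was 1.81-fold that at 16 h (log2 0.86 ± 0.06, edgeR adjusted p = 3.54e-11), the cytosolic level 1.22-fold (log2 0.29 ± 0.06, edgeR adjusted p = 0.000166). The log2 TE ratio of the samples was 0.99, 1.16, 1.10 and 1.12 with the inhibitor, against 0.53, 0.58, 0.37 and 0.53 at 16 h, a difference of 0.59 ± 0.08 (edgeR adjusted p = 2.3e-06). With the coding-length adjustment that difference was 0.20 and still called (edgeR adjusted p = 0.0352). Against control the TE difference with the inhibitor was 0.09 ± 0.07 and did not pass the test (edgeR adjusted p = 0.367), while the cytosolic level was still 3.28-fold lower (edgeR adjusted p = 3.85e-14). Analysis of partial variance, which regresses polysome on cytosolic levels within groups in place of taking their ratio, fitted a slope of 0.173 for Ccnd1. It gave -1.22 for the inhibitor against control and -1.51 for 16 h against 1 h, beside -1.60 and -1.91 in polysome RNA alone.

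**Figure D2:**
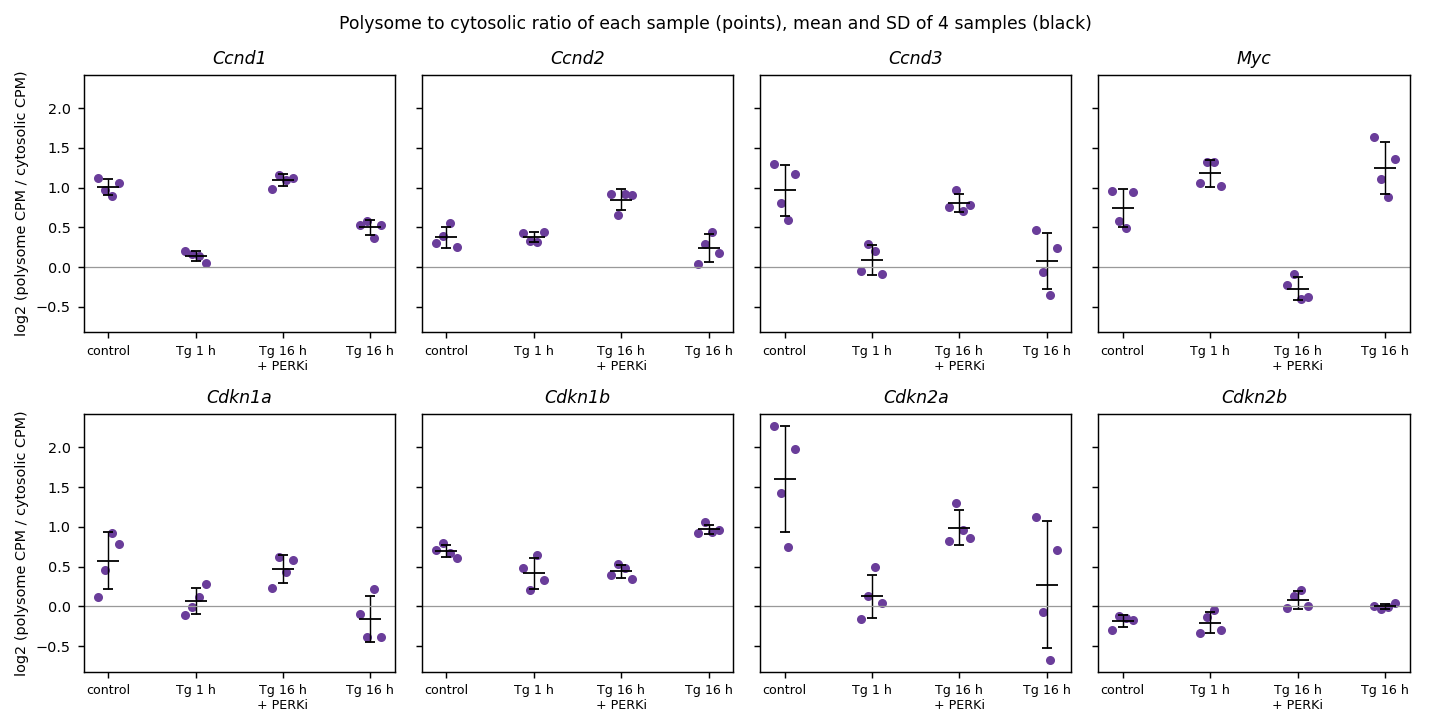
Log2 ratio of polysome to cytosolic CPM of 8 of the genes in every sample (points), with the mean and SD of 4 samples in black. A grey line at 0 marks equal scaled CPM, not equal amounts of mRNA in the pools. Ccnd1 lay at 0.05 to 0.20 at 1 h and at 0.99 to 1.16 with the inhibitor, Myc below 0 in all samples with the inhibitor, and Cdkn2a scattered most among controls (0.75 to 2.27) and at 16 h (-0.67 to 1.13).

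Ccnd2, for cyclin D2, behaved unlike Ccnd1 in that it was higher at 16 h. Cytosolic RNA held 290.5, 242.1, 253.1 and 258.3 CPM in controls, 232.7, 260.9, 241.8 and 242.8 CPM at 1 h, and 491.4, 421.8, 432.5 and 456.6 CPM at 16 h. The values at 1 h overlapped those of controls (log2 -0.11 ± 0.06, edgeR adjusted p = 0.168), and those at 16 h did not (1.59-fold, log2 0.67 ± 0.06, edgeR adjusted p = 4.24e-08). Polysome RNA was 1.49-fold control at 16 h (log2 0.58 ± 0.06, edgeR adjusted p = 6.61e-09), and the TE difference of -0.14 ± 0.09 did not pass the test (edgeR adjusted p = 0.197). That TE difference had no settled sign: it was -0.34 with an adjustment for GC content and 0.36 with the coding-length adjustment, both called. Both adjustments set each library against the mean of all libraries in the fit. They therefore also take out differences between treatments and pools that go with GC content or coding length. In cells with the inhibitor, cytosolic Ccnd2 was 173.3, 208.3, 173.7 and 182.9 CPM, 2.35-fold below 16 h without it (log2 -1.24 ± 0.06, edgeR adjusted p = 1.91e-11) and 1.48-fold below control (edgeR adjusted p = 4.62e-07). The polysome level fell less, to 328.2, 327.7, 327.3 and 341.9 CPM, against 505.0, 517.3, 588.4 and 517.9 CPM at 16 h without it (log2 -0.65 ± 0.06, edgeR adjusted p = 1.02e-09). TE was 0.61 ± 0.09 log2 units higher with the inhibitor than at 16 h without it (edgeR adjusted p = 9.72e-06), and 0.47 ± 0.09 higher than in control (edgeR adjusted p = 0.000371). With the coding-length adjustment the first of these was 0.21 and not called.

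Ccnd3, for cyclin D3, had 131.9, 141.1, 106.9 and 154.4 CPM in polysome RNA of controls, 76.2, 80.6, 82.0 and 66.8 CPM at 1 h, and 47.7, 44.5, 38.0 and 50.1 CPM at 16 h. These 3 groups did not overlap. The polysome level was 1.68-fold below control at 1 h (log2 -0.75 ± 0.11, edgeR adjusted p = 8.93e-06) and 3.11-fold below at 16 h (log2 -1.64 ± 0.11, edgeR adjusted p = 6.18e-10). Its cytosolic level at 1 h overlapped the controls (log2 0.05 ± 0.13, edgeR adjusted p = 0.749), and at 16 h was 1.74-fold lower (edgeR adjusted p = 3.55e-05). TE fell by 0.87 ± 0.17 at 1 h (edgeR adjusted p = 2e-04) and was 0.89 ± 0.17 below control at 16 h (edgeR adjusted p = 0.000194). Both stayed called with the coding-length adjustment, at -0.43 and -0.40 (edgeR adjusted p = 0.0286 and 0.0427). With the inhibitor Ccnd3 had 128.2, 102.4, 127.4 and 111.1 CPM in cytosolic RNA, against 34.5, 46.3, 48.4 and 42.6 CPM at 16 h without it. In polysome RNA it had 217.0, 200.3, 207.2 and 191.5 CPM, 4.61-fold the 16 h level (log2 2.20 ± 0.11, edgeR adjusted p = 1.48e-11) and 1.48-fold control (edgeR adjusted p = 0.000149). The cytosolic level with the inhibitor was 2.83-fold that at 16 h (edgeR adjusted p = 2.98e-08) and 1.63-fold control (edgeR adjusted p = 0.000119), so the cells with inhibitor held the highest Ccnd3 level of the 4 groups in both pools. The TE difference between them and 16 h, 0.73 ± 0.17 (edgeR adjusted p = 0.00123), was 0.33 and not called with the coding-length adjustment. Ccnd3 overlaps Bysl on the other strand, Ccnd1 a gene listed as LTO1 and Ccnd2 a pair of antisense genes, and without a stated strand setting reads of such neighbours cannot be told apart.

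Among the D cyclins, TE fell at 1 h in Ccnd1 and Ccnd3, while Ccnd2 had a difference of 0.00 ± 0.09 (edgeR adjusted p = 0.976). The GC adjustment turned this Ccnd2 value to -0.20 ± 0.05 (edgeR adjusted p = 0.000558), and the coding-length adjustment turned it to 0.45. All 3 had a higher TE with the inhibitor than at 16 h without it, except that partial variance gave -0.49 for Ccnd2.

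Myc, which encodes a factor that activates genes of ribosome assembly and metabolism, had the largest rise and the largest fall of the 8 genes tested. Cytosolic RNA held 238.0, 317.7, 286.3 and 281.3 CPM in controls, 1277, 1096, 1256 and 1207 CPM at 1 h, and 256.8, 345.1, 327.5 and 298.5 CPM at 16 h. Polysome RNA held 460.6, 475.9, 403.1 and 541.6 CPM in controls, 2647, 2751, 3128 and 2447 CPM at 1 h, and 801.3, 740.8, 603.2 and 768.6 CPM at 16 h. At 1 h the gene was thus far above control in both pools, and at 16 h it overlapped the controls in cytosolic RNA but lay above all of them in polysome RNA. The cytosolic rise at 1 h was 4.26-fold (log2 2.09 ± 0.10, edgeR adjusted p = 6.09e-11) and the polysome rise 6.06-fold (log2 2.60 ± 0.11, edgeR adjusted p = 6.55e-12), with TE up by 0.44 ± 0.15 (edgeR adjusted p = 0.0148). The TE call at 1 h was lost without control replicate 3 (log2 0.35, edgeR adjusted p = 0.0545). Partial variance, which fitted a slope of -0.165 for Myc, gave 2.95 at 1 h against control. At 16 h the cytosolic difference from control was 0.01 ± 0.10 (edgeR adjusted p = 0.959), and polysome RNA was 1.48-fold control (log2 0.56 ± 0.11, edgeR adjusted p = 0.000176). TE at 16 h was 0.50 ± 0.15 above control (edgeR adjusted p = 0.00652), although the samples' ratios overlapped.

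With the inhibitor Myc had 58.7, 50.6, 59.9 and 56.6 CPM in cytosolic RNA and 50.3, 47.4, 45.6 and 43.6 CPM in polysome RNA, below every library of the other 3 groups. Against 16 h without it, this was 5.24-fold lower in cytosolic RNA (log2 -2.39 ± 0.11, edgeR adjusted p = 3.25e-12) and 15.3-fold lower in polysome RNA (log2 -3.94 ± 0.12, edgeR adjusted p = 8.03e-14). In polysome RNA 0.265% of the genes tested had a change as low or lower. The log2 TE ratio was -0.22, -0.09, -0.39 and -0.38 with the inhibitor, against 1.64, 1.10, 0.88 and 1.37 at 16 h, a difference of -1.52 ± 0.15 (edgeR adjusted p = 1.64e-07). Against control, polysome Myc with the inhibitor was 10.4-fold lower (log2 -3.37 ± 0.12, edgeR adjusted p = 9.48e-13), cytosolic Myc 5.22-fold lower (edgeR adjusted p = 3.94e-12), and TE fell by 1.02 ± 0.15 (edgeR adjusted p = 5.36e-05). Partial variance gave -4.25 for the inhibitor against 16 h and -3.68 against control.

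A list of 26 genes commonly named as Myc targets was set beside Myc. Many act in ribosome assembly, nucleotide synthesis or translation, and others, such as Ldha, Odc1, Srm, Hspd1 and Tfrc, do not. At 1 h 14 were higher and 3 lower in cytosolic RNA, when 28.1% of all genes were called higher and 28.1% lower, and at 16 h 21 were higher and 1 lower, when 37.9% of all genes were called higher and 39.4% lower. With the inhibitor 3 were higher and 21 lower than at 16 h without it, when 42.2% of all genes were called higher and 32.5% lower. The median log2 differences were 0.25, 0.49 and -0.72, beside 0.00, -0.01 and 0.10 over all genes. Against control, the cells with inhibitor had 7 higher and 13 lower (38.1% and 35.2% of all genes), with a median of -0.18. At 16 h against 1 h, when cytosolic Myc was 4.25-fold lower, 18 were higher and 4 lower (37.7% and 37.7%). At 16 h, when cytosolic Myc itself did not differ from control by the test, the nucleolar gene Ncl was 1.99-fold control (edgeR adjusted p = 1.54e-09), the snoRNP gene Nop58 1.96-fold (edgeR adjusted p = 1.63e-09) and the helicase gene Ddx18 2.01-fold (edgeR adjusted p = 1.15e-11). At 1 h Cad, which starts pyrimidine synthesis, was 3.8-fold control (edgeR adjusted p = 7.94e-08), while Nop56 was 1.48-fold lower (edgeR adjusted p = 2.68e-08). With the inhibitor the RNA polymerase I subunit gene Polr1b was 3.2-fold lower in cytosolic RNA and 10.3-fold lower in polysome RNA than at 16 h without it (edgeR adjusted p = 7e-15 and 2.33e-19), and the nucleolar gene Nolc1 2.57-fold and 5.24-fold lower (edgeR adjusted p = 7.51e-15 and 1.15e-20). In polysome RNA 16 of the 26 were lower and 7 higher (40.7% and 42.1% of all genes), with a median of -1.25. Against control, 12 were lower and 11 higher in polysome RNA with the inhibitor (40.3% and 36.8%), with a median of -0.06.

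Of 15 genes for partners, antagonists and regulators of Myc, 14 were tested. Mycn, a Myc relative, was at or near 0 CPM in each group. Mycl, the other relative, was 12.8-fold above control at 16 h in cytosolic RNA (edgeR adjusted p = 1.13e-12), and 5.96-fold lower with the inhibitor than at 16 h without it (edgeR adjusted p = 3.78e-11). Its cytosolic mean was only 0.73 CPM in control and 10.25 CPM at 16 h. In cytosolic RNA Mxd1 and Mxd3, whose proteins compete with Myc for Max, were 2.28-fold and 11.9-fold higher with the inhibitor than without (edgeR adjusted p = 1.05e-10 and 1.12e-09). Mxd3 started from a mean of 0.72 CPM at 16 h. Mnt on the same list went the other way, from a cytosolic mean of 51.14 CPM at 16 h to 18.36 CPM with the inhibitor. Polysome RNA of Mga, which also encodes a Max partner, was 5.38-fold control at 1 h (edgeR adjusted p = 8.06e-16), and polysome RNA of Fbxw7, the ubiquitin ligase adaptor that marks Myc for destruction, 2.47-fold (edgeR adjusted p = 2.33e-12). Over the 14 genes the counts were mixed: 2 higher and 3 lower in cytosolic RNA at 1 h (28.1% and 28.1% of all genes), 5 and 3 at 16 h (37.9% and 39.4%), and 6 and 5 with the inhibitor against 16 h (42.2% and 32.5%).

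Cdkn1b, which encodes the cyclin-CDK inhibitor p27, was higher under thapsigargin. In cytosolic RNA it had 41.6, 40.4, 41.7 and 41.8 CPM in controls, 50.2, 55.0, 46.3 and 52.97 CPM at 1 h, and 72.8, 72.7, 67.9 and 67.1 CPM at 16 h, with no overlap between the 3 times. The rise was 1.22-fold at 1 h (log2 0.29 ± 0.05, edgeR adjusted p = 0.000155) and 1.56-fold at 16 h (log2 0.64 ± 0.05, edgeR adjusted p = 5.69e-09). Polysome RNA had 138.6, 151.2, 129.5 and 130.2 CPM at 16 h, 1.95-fold control (log2 0.96 ± 0.06, edgeR adjusted p = 3.17e-12), and at 1 h overlapped controls (log2 0.08 ± 0.06, edgeR adjusted p = 0.241). With the inhibitor the cytosolic level was 78.0, 76.9, 78.4 and 86.3 CPM, 1.18-fold that at 16 h (edgeR adjusted p = 0.000466). The polysome level was 103.1, 111.0, 109.5 and 109.6 CPM, 1.24-fold below that at 16 h (edgeR adjusted p = 4.34e-05). TE therefore differed by -0.53 ± 0.08 between these groups (edgeR adjusted p = 2.06e-05), after -0.28 ± 0.08 at 1 h and 0.27 ± 0.08 at 16 h against control (edgeR adjusted p = 0.00673 and 0.00869). After the GC adjustment the polysome value at 1 h was -0.21 and called, the polysome difference with the inhibitor -0.01 (edgeR adjusted p = 0.84), and the TE difference at 16 h -0.06 (edgeR adjusted p = 0.636). The TE difference at 1 h was -0.05 and not called with the coding-length adjustment.

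Cdkn1a, which encodes p21 and is a well-known p53 target, was low in every library, the highest being 3.589 CPM in control polysome RNA. In polysome RNA it had 2.59, 2.89, 2.74 and 3.59 CPM in controls, 2.00, 1.97, 2.41 and 2.30 CPM at 1 h, and 0.93, 0.76, 1.36 and 0.85 CPM at 16 h, and the 3 times did not overlap. The 16 h level was 3.18-fold below control in polysome RNA (log2 -1.67 ± 0.17, edgeR adjusted p = 8.95e-09) and 2.04-fold below in cytosolic RNA (log2 -1.03 ± 0.16, edgeR adjusted p = 1.33e-05). With the inhibitor it had 1.92, 1.93, 2.09 and 1.80 CPM in polysome RNA, 2.02-fold the 16 h level (log2 1.01 ± 0.17, edgeR adjusted p = 1.49e-05). Behind these values stand 114 counts summed over the 4 polysome libraries at 16 h and 323 in controls. At this depth the polysome call at 1 h, 1.32-fold lower (edgeR adjusted p = 0.0221), was lost when control replicate 4, 1 h replicate 1 or 1 h replicate 2 was left out, and with library totals (edgeR adjusted p = 0.0596) or the GC adjustment (edgeR adjusted p = 0.0539). The cytosolic call with the inhibitor against 16 h, 1.37-fold (edgeR adjusted p = 0.0181), was lost without inhibitor replicate 1 or 3, with DESeq2 (adjusted p = 0.0692) and with the GC adjustment (edgeR adjusted p = 0.137). Trp53 itself was listed at 0 in all 32 libraries, as was Wrap53, which overlaps it, so its level is not known from this table. Of 21 other genes tested that are known p53 targets or regulators, 5 were higher and 12 lower in cytosolic RNA at 1 h (28.1% and 28.1% of all genes), 8 and 10 at 16 h (37.9% and 39.4%), and 12 and 7 with the inhibitor against 16 h (42.2% and 32.5%). The genes with the smallest adjusted p in cytosolic RNA at 16 h moved in different directions. Gadd45a, a growth arrest gene that also responds to ER stress, was 11.7-fold above control at 16 h (edgeR adjusted p = 2.48e-17), Btg2 5.35-fold below (edgeR adjusted p = 1.39e-15) and Plk2 4.35-fold below (edgeR adjusted p = 9.27e-16).

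Cdkn1c, for p57, had 12 counts summed over the 4 control cytosolic libraries, 3 at 1 h, 0 at 16 h and 8 with the inhibitor. In polysome RNA the sums were 2, 5, 0 and 6 counts, and it failed the filter. A library with 0 counts still allows up to 3, which is 0.0787 to 0.0922 CPM in the 16 h cytosolic libraries, and no fold change is given.

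The Ink4 genes lie side by side on chromosome 4 of GRCm38, Cdkn2b at 89306299 to 89311039 and Cdkn2a at 89274471 to 89294653, both on the minus strand. Cdkn2b, for p15, was higher in both pools at 1 h and with the inhibitor. In cytosolic RNA it had 29.2, 27.3, 28.4 and 30.1 CPM in controls, 53.2, 46.6, 47.2 and 50.3 CPM at 1 h, and 28.4, 33.6, 28.8 and 29.2 CPM at 16 h, so that the 1 h libraries stood apart and those at 16 h overlapped controls. The rise at 1 h was 1.7-fold in cytosolic RNA (log2 0.77 ± 0.07, edgeR adjusted p = 5.43e-08) and 1.75-fold in polysome RNA (log2 0.81 ± 0.06, edgeR adjusted p = 8.76e-11). With the inhibitor the cytosolic level was 56.8, 50.4, 49.6 and 55.4 CPM, 1.83-fold that at 16 h (log2 0.88 ± 0.07, edgeR adjusted p = 3.58e-09). Polysome RNA had 55.9, 55.3, 57.2 and 55.5 CPM, against 28.4, 32.7, 28.7 and 30.0 CPM at 16 h (1.91-fold, log2 0.93 ± 0.06, edgeR adjusted p = 5.12e-12). TE differences of -0.02 ± 0.08 at 1 h and 0.08 ± 0.08 with the inhibitor against 16 h did not pass the test (edgeR adjusted p = 0.834 and 0.405). Polysome RNA at 16 h was 1.12-fold control (edgeR adjusted p = 0.0131), a call lost without control replicate 1 or 16 h replicate 2.

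Cdkn2a, for p16 and ARF, was well expressed but scattered widely between replicates. Its polysome RNA had 260.5, 329.9, 178.8 and 380.7 CPM in controls, 114.7, 102.7, 141.9 and 91.7 CPM at 1 h, and 83.7, 83.1, 49.1 and 101.02 CPM at 16 h, all treated libraries being below all controls. The fall was 2.45-fold at 1 h (log2 -1.30 ± 0.25, edgeR adjusted p = 0.000328) and 3.8-fold at 16 h (log2 -1.93 ± 0.26, edgeR adjusted p = 8.61e-06). Cytosolic RNA at 1 h had 128.3, 93.6, 100.9 and 88.8 CPM, against 53.9, 123.3, 106.1 and 96.9 CPM in controls, and did not pass the test (log2 0.10 ± 0.26, edgeR adjusted p = 0.767), so TE fell by 1.48 ± 0.37 (edgeR adjusted p = 0.00256). At 16 h cytosolic Cdkn2a was 1.56-fold below control with overlapping libraries (edgeR adjusted p = 0.0372). Leaving out control replicate 2, 3 or 4 or 16 h replicate 1 or 4 ended that call, with log2 values from -0.84 to -0.45 over all 8 omissions. With the inhibitor polysome Cdkn2a had 240.9, 212.0, 242.8 and 201.8 CPM, 2.88-fold the 16 h level (log2 1.52 ± 0.25, edgeR adjusted p = 7.75e-05). Cytosolic RNA with the inhibitor was 1.79-fold that at 16 h (edgeR adjusted p = 0.01). The table counts per gene, so transcripts from the ARF start and from the p16 start cannot be told apart.

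Promoter windows of 300 bases, most of them upstream of the start, taken from RefSeq on GRCm38.p6, were at hand for 5 of the 9 genes (Ccnd3, Cdkn1a, Cdkn1b, Cdkn2a and Cdkn2b). Those of the Ink4 locus are printed to show how unlike the separate starts behind these neighbouring genes are, 5′ to 3′ on the minus strand, with each GC box (GGGCGG, searched on both strands) in capitals. They span chr4:89294570-89294869 for the ARF start of Cdkn2a, chr4:89282143-89282442 for its p16 start and chr4:89310983-89311282 for Cdkn2b.
Cdkn2a, ARF start: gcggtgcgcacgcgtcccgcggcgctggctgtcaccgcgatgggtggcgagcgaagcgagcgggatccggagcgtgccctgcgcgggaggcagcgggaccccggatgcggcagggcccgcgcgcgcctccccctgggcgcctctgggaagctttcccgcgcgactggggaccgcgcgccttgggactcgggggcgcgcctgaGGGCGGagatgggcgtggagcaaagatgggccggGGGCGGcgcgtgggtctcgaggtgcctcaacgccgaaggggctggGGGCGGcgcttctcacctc
Cdkn2a, p16 start: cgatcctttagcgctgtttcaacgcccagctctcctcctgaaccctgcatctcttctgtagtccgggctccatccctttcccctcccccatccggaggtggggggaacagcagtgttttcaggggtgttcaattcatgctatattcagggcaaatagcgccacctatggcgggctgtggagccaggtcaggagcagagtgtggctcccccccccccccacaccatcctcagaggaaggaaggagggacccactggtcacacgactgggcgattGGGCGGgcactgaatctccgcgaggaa
Cdkn2b: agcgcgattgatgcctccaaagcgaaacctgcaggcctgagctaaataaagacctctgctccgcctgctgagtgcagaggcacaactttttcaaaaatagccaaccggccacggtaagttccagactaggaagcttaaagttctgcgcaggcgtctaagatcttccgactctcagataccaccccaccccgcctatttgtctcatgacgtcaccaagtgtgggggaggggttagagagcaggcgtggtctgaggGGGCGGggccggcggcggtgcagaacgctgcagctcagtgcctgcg
The ARF window had 77% GC and 3 GC boxes, the p16 window 60.3% GC and 1, and the Cdkn2b window 57.7% GC and 1. A GC box occurs in 35.7% of 32851 promoter windows. None of the windows of the 5 genes held the E-box CACGTG, found in 7.15% of all windows, or TGATGNAA, the core of a CHOP-ATF4 composite site, found in 3.97%, and a match or its absence is a description of these letters only.

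Levels of Cdkn2a and Ccnd3, the GC-rich transcripts of the 8 (60.2% and 58.4% GC), followed the GC trend of the libraries. The library lowest in Cdkn2a among control cytosolic RNA, at 53.92 CPM, was the one with a trend of -0.739, and the highest, at 123.3 CPM, the one with 0.708. The GC adjustment used deviations from the mean of all libraries in the fit, so it also took out GC-related differences between treatments. It narrowed the error of Ccnd3 in cytosolic RNA at 1 h to 0.03, against 0.13 without it. The Ccnd3 value there was -0.17 with a call (edgeR adjusted p = 2.29e-05), against 0.05 without it. For Cdkn2a in TE at 1 h the value became -1.06 ± 0.17 (edgeR adjusted p = 7.01e-05), against -1.48 ± 0.37. In TE with the inhibitor against 16 h, Cdkn2a passed the test after this adjustment (0.75 ± 0.17, edgeR adjusted p = 0.00138), having been 0.71 ± 0.37 without it (edgeR adjusted p = 0.112).

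**Figure D3:**
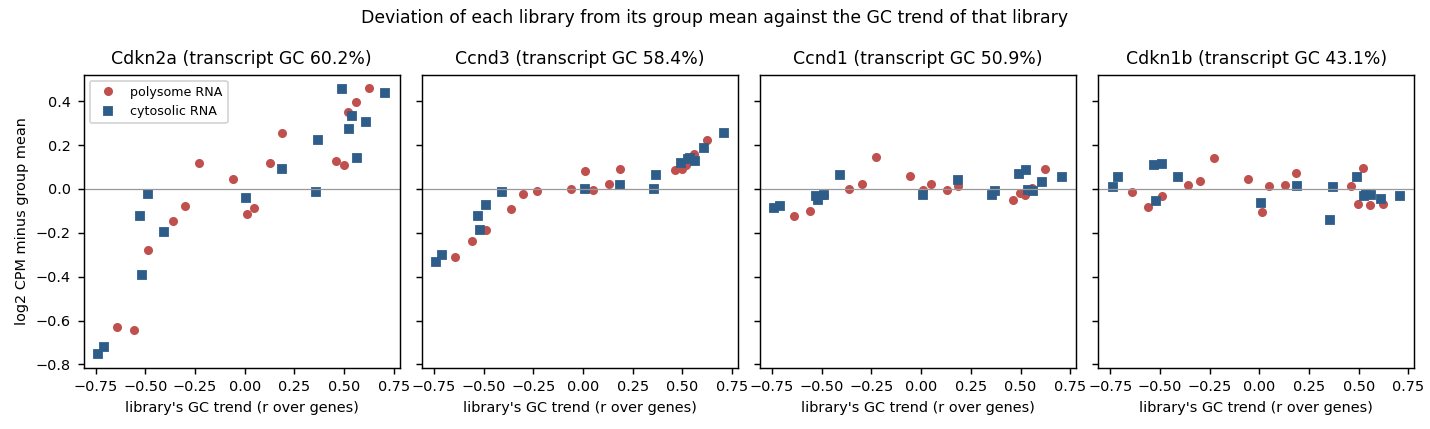
Deviation of each library's log2 CPM from its group mean against that library's GC trend, the correlation over genes between the library's deviation from its group and transcript GC content, for Cdkn2a, Ccnd3, Ccnd1 and Cdkn1b (polysome libraries as red circles, cytosolic libraries as blue squares, 32 in each panel). Cdkn2a and Ccnd3 rise along the trend, and Ccnd1 (50.9% GC) and Cdkn1b (43.1% GC) do so far less or not at all.

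**Figure D4:**
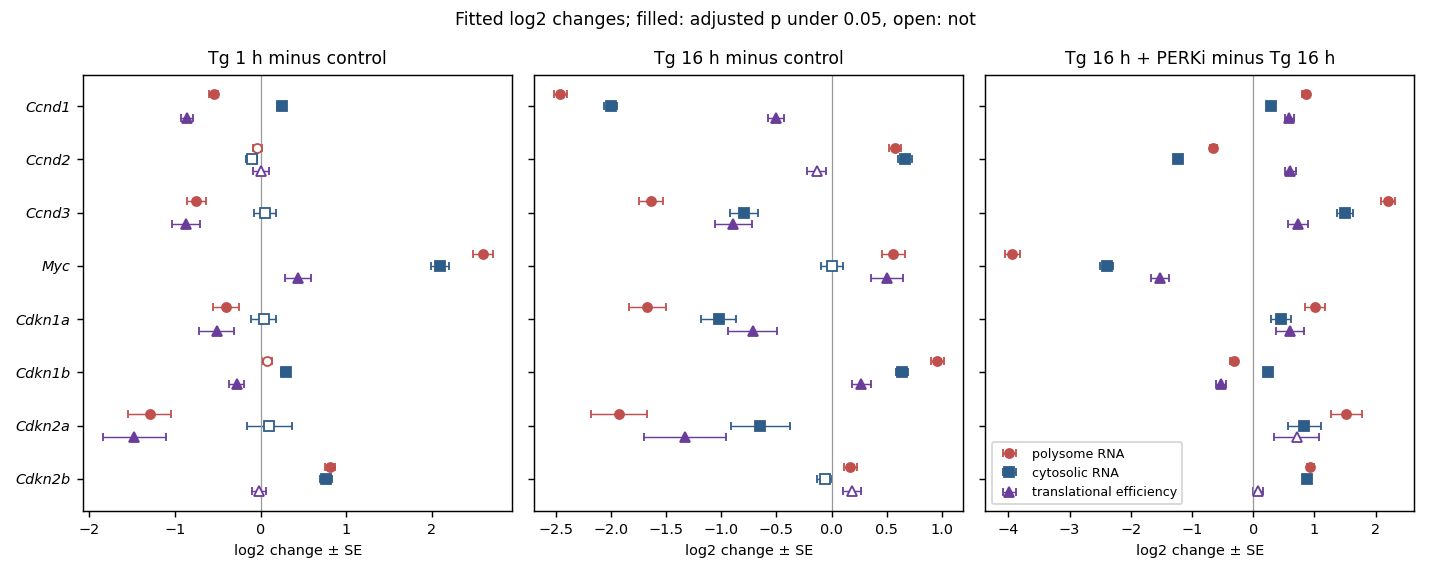
Fitted log2 change ± SE of 8 of the genes in polysome RNA (red circles), cytosolic RNA (blue squares) and TE (purple triangles) in 3 comparisons, filled where the edgeR adjusted p was under 0.05. Ccnd1 lies right of 0 in cytosolic RNA and left of it in polysome RNA at 1 h, and Myc reaches -3.94 in polysome RNA with the inhibitor.

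Among 24 other genes of the G1 machinery, which act with or downstream of the D cyclins, 14 were lower and 2 higher in cytosolic RNA at 1 h (28.1% and 28.1% of all genes). At 16 h 13 were lower and 8 higher than control (39.4% and 37.9% of all genes), with a median log2 difference of -0.37. Ccna2, for cyclin A2, was 4.17-fold lower at 16 h (edgeR adjusted p = 2.09e-13), Cdkn2c, for the Ink4 inhibitor p18, 3.46-fold lower (edgeR adjusted p = 1.32e-14), and Ccne1, for cyclin E1, 1.9-fold lower (edgeR adjusted p = 2.68e-09). With the inhibitor 16 were higher and 6 lower than at 16 h without it (42.2% and 32.5% of all genes), with a median of 0.65. The factor gene E2f2 was 9.8-fold higher with the inhibitor (edgeR adjusted p = 2.23e-14), Cdkn2c 5.5-fold (edgeR adjusted p = 7.93e-16) and Ccne1 4.31-fold (edgeR adjusted p = 8.63e-14). E2f2 started from a mean of 1.96 CPM at 16 h. Polysome Ccne1 was 10.1-fold higher (edgeR adjusted p = 4.18e-20). Cdk4, a partner of the D cyclins, had a TE 0.84 log2 units below control at 16 h (edgeR adjusted p = 1.11e-09) and 0.87 higher with the inhibitor than at 16 h without it (edgeR adjusted p = 1.21e-09). By group means Cdk6, which also binds D cyclins, went the other way. Its polysome and cytosolic means were 266.1 and 259 CPM in control and 258 and 191.2 CPM at 16 h. With the inhibitor they were 184.7 and 164.3 CPM.

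Of 15 genes for the turnover of D cyclins, 10 were higher and 2 lower in cytosolic RNA at 16 h (37.9% and 39.4% of all genes). Cryab, whose protein serves the ligase adaptor Fbxo4 as a cofactor, was 4.64-fold lower at 16 h (edgeR adjusted p = 6.64e-12) and 5.43-fold higher with the inhibitor than at 16 h without it (edgeR adjusted p = 2.68e-12). In polysome RNA at 1 h, 5 of the 15 were higher and 6 lower than control (41.1% and 38.5% of all genes). Polysome RNA of Ambra1, the ligase receptor that targets D cyclins, was 3.12-fold control at 1 h (edgeR adjusted p = 1.88e-16), and that of its partner Ddb1 6-fold (edgeR adjusted p = 1.76e-19). Fbxo4 went the other way, from a polysome mean of 101.8 CPM in control to 58.3 CPM at 1 h. With the inhibitor Ambra1 and Ddb1 were 2.54-fold and 5.14-fold lower in polysome RNA than at 16 h without it (edgeR adjusted p = 3.24e-15 and 4.69e-19). In that comparison 7 of the 15 were higher and 6 lower (42.1% and 40.7% of all genes). Of 12 Cdkn1b regulators, 4 were higher and 5 lower in cytosolic RNA at 16 h (37.9% and 39.4% of all genes), and 7 higher and 4 lower with the inhibitor than at 16 h without it (42.2% and 32.5%). Skp2, the ligase adaptor that marks p27 for destruction, was 1.48-fold lower at 16 h (edgeR adjusted p = 2.41e-08) and 2.33-fold higher with the inhibitor than without it (edgeR adjusted p = 1.35e-12). Of 15 genes known to regulate the Ink4 locus, 12 were higher and 1 lower in polysome RNA at 1 h, when 41.1% and 38.5% of all genes were. In cytosolic RNA at 16 h, 5 were higher and 6 lower than control (37.9% and 39.4% of all genes). In polysome RNA with the inhibitor, 2 were higher and 9 lower than at 16 h without it (42.1% and 40.7%). Id1, whose protein opposes Ets activation of p16, was 33.8-fold lower in cytosolic RNA at 16 h (edgeR adjusted p = 2.47e-12), and Ets2 1.71-fold higher (edgeR adjusted p = 5.23e-11). The Id1 mean was 0.78 CPM at 16 h, so its fold rests on a low level. Ets1 went the other way from Ets2, with a cytosolic mean of 58.59 CPM at 16 h against 111.3 CPM in control.

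**Figure D5:**
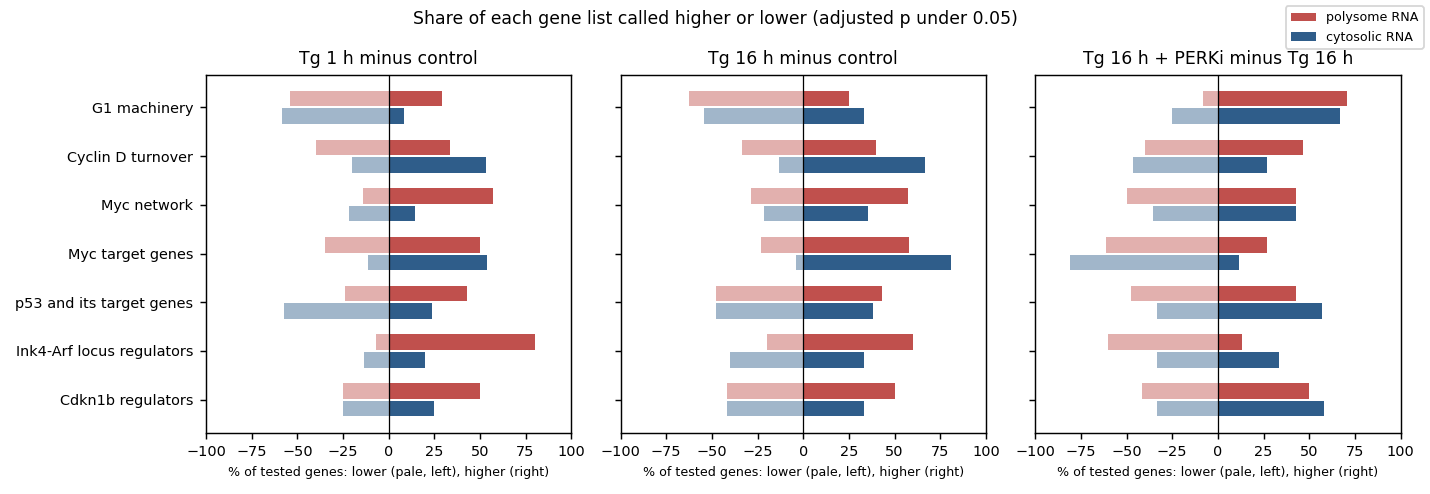
Share of the tested genes of each list called higher (full colour, right) or lower (pale, left) in polysome RNA (red) and cytosolic RNA (blue) for 3 comparisons. Of the Myc targets 21 of 26 were higher in cytosolic RNA at 16 h than in control, and 21 of 26 lower with the inhibitor than at 16 h without it.

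Likeness of pattern was measured as the root mean square difference of centred mean log2 CPM over the 8 groups, the 4 conditions in both kinds of RNA. Nearest to Ccnd1 among 9718 genes were Sulf2, Fhl2, Sphk1 and Pmvk, at 0.212 to 0.226 log2 units. The genes nearest to Cdkn1a were Dtnbp1, Kcnab2, Iba57 and Nek6, at 0.0883 to 0.124. With group means of 0.9754 to 2.953 CPM, the differences of Cdkn1a were shrunk by the pseudocount of 0.5 CPM. Its distances are therefore not comparable with those of the better expressed genes. Myc had no neighbour as close as those of Ccnd1: Fbn1, Ier2, Arid5a and Fn1 stood at 0.639 to 0.832.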

How the data were processed

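The authors deposited whole-number counts by gene symbol for 32 libraries, not normalized, and columns were matched to samples by the names in the sample descriptions. Per the submitters' processing notes, the tools were HISAT and DESeq2 1.9.23 and the build mm10. How reads were counted, with which strand setting and annotation, is not given in the sources used here. Overlapping genes may therefore share reads. Of 20234 genes, 3234 were at 0 in every library. No pair of replicates agreed within sampling noise (lowest chi-square per degree of freedom 2.29).

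Counts were fitted with edgeR 4.0.16 (R 4.3.3, with limma 3.58.1; filterByExpr with minimum count 10 and total 15, TMM, robust quasi-likelihood test, Benjamini-Hochberg adjustment over all genes). Cytosolic (12366 genes) and polysome RNA (12065) were fitted over 16 libraries each, and translational efficiency (12561 genes) by a term for condition within polysome RNA (the interaction) over all 32 with the sample as a block, since the series design says each sample gave both. Yet the deviations of both libraries of a sample from their groups correlated weakly, with a median of 0.108 (-0.557 to 0.333). The ratio of a single sample therefore also holds differences between its libraries. Precision is limited by 4 replicates and, for Cdkn1a and Cdkn1c, by counting. The limit at 0 uses 3 counts and covers counting error only. Alternatives were DESeq2 1.42.0, RLE factors, library totals, no filter, replicate and coding-length terms, analysis of partial variance and each sample left out. GC-corrected offsets (loess, span 0.3) were added after seeing the data. Their trends, like those for coding length, were fitted to deviations from the mean of all libraries in the fit, not from the group. Coding length and GC came from GENCODE M21 on GRCm38 for 98.8% and 99.1% of the genes tested. The fits were tested on simulated data with the same dispersion for every gene and no GC trend or sample effects. That test therefore does not cover these sources of spread.

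The members and gene lists were chosen with earlier results of these data known. From each list, up to 3 genes with the smallest adjusted p in a comparison were named, together with 4 ER stress genes. For Ccnd1, Cdkn1a and Myc the 4 genes nearest in pattern were named among genes with at least 5 CPM (pseudocount 0.5).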

Additional observations from a re-analysis of the deposited data

Results flagged for a closer look

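Among 96 groups of 4 values (8 genes in cytosolic RNA, polysome RNA and their ratio), 6 held a value far from the other 3 by Dixon's test, near the 1 in 20 that chance gives. Polysome Ccnd2 at 16 h was 588.4 CPM in replicate 3, beside 505.0 to 517.9 CPM in the others. Polysome Ccnd2 with the inhibitor was 341.9 CPM in replicate 4, beside 327.3 to 328.2 CPM. The log2 ratio of polysome to cytosolic Ccnd2 with the inhibitor was 0.654 in replicate 2, beside 0.9024 to 0.9211. Cytosolic Cdkn1b was 86.25 CPM in replicate 4 with the inhibitor, beside 76.85 to 78.37 CPM, and 40.43 CPM in control replicate 2, beside 41.59 to 41.8 CPM. Cytosolic Cdkn2b at 16 h was 33.55 CPM in replicate 2, beside 28.37 to 29.19 CPM.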

How the results depend on the processing

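Counting depth limited Cdkn1a and Cdkn1c. The cause of the changes below was not tested. The labels do not say whether replicate numbers pair samples across conditions. Same-number deviations correlated between -0.665 and 0.825. Libraries also differed in their GC trend, so these correlations cannot settle whether samples were paired. With the replicate block the TE counts were 8579 at 1 h and 8159 at 16 h against control, and cytosolic Cdkn2a at 16 h lost its call (-0.65). Cdkn2b TE at 16 h against control, 0.183 and not called as reported (edgeR adjusted p = 0.055), was called with the block (0.18), DESeq2 (0.235), RLE factors (0.236), totals (0.325), the GC correction (0.484), coding length (0.27) and partial variance (0.191). Against 1 h it was called with the block (0.20) and coding length (0.426). Counts over all genes stayed within 1.5 times under every alternative, except TE at 16 h against 1 h, with 3527 genes as reported, 5647 with the GC correction and 7048 with partial variance. Of the TE calls with the inhibitor against control 37.6% were higher, against 49.5% with DESeq2, 50.2% with RLE factors, 79.9% with library totals, 50.8% with coding length and 53.2% with partial variance. With the inhibitor against 16 h the TE share was 43.9%, and 54.9% with totals, and in polysome RNA against control it was 47.8%, and 62.9% with totals. Library totals moved the median of all genes by 0.164 and 0.239 in polysome RNA with the inhibitor against 16 h and control, and by 0.143 to 0.297 in TE, except at 16 h against 1 h (-0.0237). Ccnd1 TE at 16 h lost its call with coding length (-0.014), and with the inhibitor against control gained one with totals (0.382) and the GC correction (0.218). Partial variance turned Ccnd1 TE to -1.22 there and to -1.51 at 16 h against 1 h.

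The GC correction gave, in cytosolic RNA at 1 h against control, -0.171 for Ccnd3, -0.011 for Cdkn1a and -0.173 for Cdkn2a, 0.080 for Cdkn2b at 16 h and -0.035 for Cdkn2a with the inhibitor against control. It gave -0.210 for polysome Cdkn1b at 1 h, and in TE -0.200 for Ccnd2 and 0.245 for Cdkn2b at 1 h, -0.056 for Cdkn1b at 16 h, and 0.215 for Ccnd3 and 0.137 for Cdkn1a with the inhibitor against control. Library totals gave -0.010 for cytosolic Myc at 16 h, 0.035 and 0.164 for polysome Ccnd2 at 1 h and with the inhibitor against control, and in TE 0.146 for Cdkn2b at 1 h and 0.0073 for Ccnd2 at 16 h. With the inhibitor against control, totals gave TE of 0.134 for Ccnd3, 0.189 for Cdkn1a and 0.039 for Cdkn1b. TE of Cdkn2b at 1 h was 0.020 with DESeq2 and 0.021 with RLE factors, and that of Ccnd2 -0.010 without the filter. Coding length gave TE of 0.356 for Ccnd2 at 16 h and 0.027 for Ccnd3 at 16 h against 1 h. Partial variance gave at 1 h -0.025 for Ccnd2, 0.149 for Cdkn1b and 0.650 for Cdkn2b, and 0.541 for Ccnd2 at 16 h. At 16 h against 1 h it gave 0.566 for Ccnd2, -0.655 for Cdkn2a, -0.459 for Cdkn2b and -2.38 for Myc. With the inhibitor it gave -0.487 for Ccnd2 against 16 h, and 0.730 for Ccnd3 and 0.948 for Cdkn1b against control, and it ended the calls of Ccnd2 against control (0.054) and Cdkn1b against 16 h (-0.179).

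Leaving out 1 sample at a time moved the sign of 12 results that had not passed the test: in cytosolic RNA at 1 h Ccnd3 (-0.053 to 0.146), Cdkn1a (-0.090 to 0.117) and Cdkn2a (-0.097 to 0.255), Myc at 16 h (-0.071 to 0.089), Cdkn2a with the inhibitor against control (-0.0050 to 0.347), and polysome Ccnd2 at 1 h (-0.083 to 0.013). In TE they were Ccnd2 (-0.042 to 0.061) and Cdkn2b (-0.076 to 0.018) at 1 h, Ccnd3 (-0.145 to 0.121), Cdkn2a (-0.127 to 0.460) and Myc (-0.062 to 0.189) at 16 h against 1 h, and Cdkn1a with the inhibitor against control (-0.251 to 0.00094). Such omissions ended some calls of Cdkn1a, Cdkn2a and polysome Cdkn2b, as well as those of Cdkn1b TE with the inhibitor against control (-0.288 to -0.221) and Myc TE at 1 h (0.348 to 0.50).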
